A study of Mus musculus with 9 samples.

Results

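Border-associated macrophages are the macrophages of the meninges and of the spaces around brain vessels, and 86 of their nuclei were found among 74895 nuclei from the cortex and hippocampus of 9 mice. A nucleus was taken as a member when it held 200 to 5000 genes and at most 10% mitochondrial molecules, and had at least 1 unique molecular identifier (UMI, the mark of 1 counted RNA molecule) of 2 or more of the 5 genes Mrc1, F13a1, Cd163, Lyve1 and Ms4a7. Mrc1 or F13a1 had to be among them. A member also had 0 UMIs of each of Slc17a7, Gad1, Mog, Pdgfra, Flt1 and P2ry12, which mark glutamatergic neurons, GABAergic neurons, oligodendrocytes, their precursors, endothelial cells and microglia. The deposited matrices held 77823 barcodes in all, so that 74895 were within the limits on genes and mitochondrial molecules. The members were chosen by these UMI counts, which also fix how far these genes and their companions stand above other nuclei, and such contrasts are given as a description with no test.

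The nuclei came from male wild-type C57BL/6 mice, 3 in each of 3 groups, with 1 library per mouse. Each mouse had received an adeno-associated virus (AAV) with the PHP.V1 capsid into the retro-orbital sinus 8 weeks before the tissue was taken, and its cargo was under a shortened CLDN5 promoter meant for endothelial cells. Young mice of 5 months carried AAV-EGFP, which encodes a fluorescent control protein. Aged mice of 19 months carried either AAV-EGFP or AAV-B3GNT3, which encodes EGFP together with the enzyme B3GNT3 of mucin-type O-glycan synthesis. All mice, controls included, thus carried virus and none was left without it. Nuclei were sorted from frozen hemispheres by their DNA stain and counted with a droplet kit that reads the 3′ end of transcripts. The mouse gene B3gnt3 had 0 UMIs in the members. The young and the aged mice came from different suppliers, so age and supplier cannot be told apart. The 3 comparisons below ask whether these macrophages differed with age under the control virus, with endothelial B3GNT3 in old mice, and between old mice with B3GNT3 and young controls.

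Macrophages of the brain's borders take up proteins, lipids and debris from the cerebrospinal fluid and from vessel walls through scavenger and endocytic receptors. They are set apart from microglia, the macrophages of the tissue itself, by Mrc1 (the mannose receptor CD206), Cd163 (the receptor for haemoglobin bound to haptoglobin), F13a1 (the A chain of coagulation factor XIII), and members of the Ms4a family of membrane proteins with 4 spans. Distinct states are commonly told apart at the borders, one with Lyve1, a hyaluronan receptor, and one with MHC class II, which presents antigen to T cells. Growth and survival of these cells rest on the receptor Csf1r, as in microglia.

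The starts of Mrc1 and F13a1, of which the rule required at least 1, and of 4 Ms4a genes are printed here, since the results on identity turn on these genes and 4 of them lie close together on chromosome 19. Each line holds the 250 bases before the gene's start in RefSeq (GRCm38.p6), written 5′ to 3′ on the gene's own strand, with capitals for the motif GGAAGT or its reverse complement ACTTCC, the core bound by PU.1 and other ETS factors of macrophages. The windows are chr2:14229164-14229413 for Mrc1 (plus strand), chr13:37050245-37050494 for F13a1 (minus), chr19:11336147-11336396 for Ms4a7 (minus), chr19:11375238-11375487 for Ms4a4a (plus), chr19:11469118-11469367 for Ms4a6c (plus) and chr19:11518309-11518558 for Ms4a6b (plus).
Mrc1: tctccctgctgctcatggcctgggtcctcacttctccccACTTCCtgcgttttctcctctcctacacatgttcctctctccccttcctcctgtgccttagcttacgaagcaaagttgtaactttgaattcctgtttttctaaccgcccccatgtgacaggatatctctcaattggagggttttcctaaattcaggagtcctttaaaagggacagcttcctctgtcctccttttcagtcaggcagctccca
F13a1: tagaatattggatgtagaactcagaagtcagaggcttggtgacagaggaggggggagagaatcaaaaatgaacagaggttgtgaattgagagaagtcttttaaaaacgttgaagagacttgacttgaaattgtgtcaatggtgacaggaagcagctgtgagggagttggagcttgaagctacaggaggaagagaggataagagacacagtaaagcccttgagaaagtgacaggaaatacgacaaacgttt
Ms4a7: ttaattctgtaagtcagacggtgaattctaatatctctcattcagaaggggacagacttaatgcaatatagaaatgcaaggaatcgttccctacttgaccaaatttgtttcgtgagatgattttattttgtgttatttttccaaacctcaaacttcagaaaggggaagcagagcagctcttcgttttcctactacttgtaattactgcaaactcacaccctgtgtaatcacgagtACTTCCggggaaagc
Ms4a4a: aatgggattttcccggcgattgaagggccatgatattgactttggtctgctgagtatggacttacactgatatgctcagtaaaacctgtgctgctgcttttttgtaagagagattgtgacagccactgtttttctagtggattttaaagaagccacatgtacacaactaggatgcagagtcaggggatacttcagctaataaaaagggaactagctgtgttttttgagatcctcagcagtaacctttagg
Ms4a6c: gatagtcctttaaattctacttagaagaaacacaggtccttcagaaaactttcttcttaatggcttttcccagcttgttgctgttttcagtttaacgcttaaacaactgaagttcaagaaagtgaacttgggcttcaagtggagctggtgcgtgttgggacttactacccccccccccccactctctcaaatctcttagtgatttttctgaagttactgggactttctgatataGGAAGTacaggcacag
Ms4a6b: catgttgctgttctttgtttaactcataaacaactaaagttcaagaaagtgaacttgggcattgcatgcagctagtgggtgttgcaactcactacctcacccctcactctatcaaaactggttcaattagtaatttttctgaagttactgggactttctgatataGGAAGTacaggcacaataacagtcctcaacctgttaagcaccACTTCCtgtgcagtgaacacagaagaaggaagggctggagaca

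The motif, searched on both strands, was found in 4 of these 6 windows and in 6485 of 32851 RefSeq promoters of the same length (19.7%). Among the 20 rule and leading genes described below, 15 had an entry and 7 of these held it. Mrc1 had 1 match 211 bases before its start and Ms4a7 1 match 15 bases before. Ms4a6c had 1 match at 16 bases and Ms4a6b had 2, at 85 and 43 bases. The windows of Ms4a6c and Ms4a6b shared an identical run of 48 bases around a match, which began 49 bases before the start of the one and 118 before the start of the other. All other pairs of the 6 windows shared at most 11 bases in a row. The RefSeq start of Ms4a6b lies inside the gene as GENCODE draws it (11516512 to 11531256). Those of Mrc1 and Ms4a6c also lie past their GENCODE starts (14229392 and 11469366), so these windows too reach into the genes. A match describes letters only, and factor binding was not measured here. The shared run follows, with the same capitals.
Ms4a6c and Ms4a6b: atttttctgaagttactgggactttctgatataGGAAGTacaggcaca

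The members were few and shallow, and 1 library stood apart. A library held 6005 to 10017 nuclei within the limits, of which 3 to 14 were members. Young AAV-EGFP replicate 1 held only 3 members and was left out of the gene tests, which asked for 5. The UMIs of the members summed to 6001 to 34104 per library and to 196660 in all, over 12829 genes with at least 1 UMI. A member held a median of 1892 UMIs, with a range of 666 to 12595, and 1309 microglia held a median of 2036. Microglia were nuclei with at least 2 of 5 microglia genes, among them Siglech, Gpr34, Tmem119 and P2ry12, which was required, and with 0 UMIs of Mrc1, F13a1 and the exclusion genes of other cell types. A background of free RNA was estimated from neuron genes: relative to all nuclei of the same library, the share of UMIs from 11 neuron genes was 75.9% as high in the members of aged AAV-EGFP replicate 1, 9.998 to 38.2% in those of the other libraries and 47.6 to 94.2% in microglia. If all such UMIs were free RNA of the library's composition, these are the shares of free RNA, so single UMIs of genes common in other nuclei, and levels set against microglia, are to be read beside them. Any 2 of the 9 libraries shared 6 to 35 barcodes (median 19 over 36 pairs), and no member's barcode was found in another library.

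In aged AAV-EGFP replicate 1 a single nucleus with 12595 UMIs gave 45.5% of that library's member UMIs. In it, 5.95% of UMIs came from 12 neuron genes, against a median of 0.863% and a highest value of 2.93% in the 78 members with at most 2 times the median UMIs of their library. It held 3 UMIs of Mrc1 and 3 of F13a1, beside 6 of 10 macrophage genes outside the rule. It was 1 of 8 members, in 4 libraries, that exceeded 2 times the median of their library. In 3 of the 8, 1.497 to 3.25% of UMIs came from 6 astrocyte genes, against a highest value of 0.299% in the 78 members. The summed neuron-gene level of the members was 29560 CPM (UMIs scaled to the same total in every group of nuclei) in aged AAV-EGFP replicate 1 and 5027 to 13998 in the other libraries, with 37331 in all other nuclei. The part of these nuclei in the results was not tested, and results that rest on them are given with and without them.

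The nuclei just outside the rule differed by the side on which they missed it. Of 250 nuclei with 2 or more rule markers, Mrc1 or F13a1 included, 164 (65.6%) were removed for an exclusion gene, and 64 of those for a single UMI of 1 such gene, most often P2ry12 (36 nuclei). All of these 64 also held at least 2 of 10 macrophage genes outside the rule, as did 85 of the 86 members. Among 191 nuclei with only 1 marker, 19 (9.95%) did so, against 7.32% of all nuclei. Of the members, 35 had exactly 2 of the 5 markers, 33 had 3, 16 had 4 and 2 had all 5. Mrc1 and F13a1 were found together in 76 members, Mrc1 without F13a1 in 7, and F13a1 without Mrc1 in 3.

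The 5 rule markers stood far above other nuclei, as the rule requires. The levels below are in CPM, the UMIs of a gene in a group of nuclei scaled to the same total in every group. They are not divided by gene length, so they compare groups for 1 gene and not genes with each other. Mrc1 (chromosome 2, 14229392 to 14332057) was counted 767 times in 83 members, at 3900 CPM against 3.43 in all other nuclei. F13a1 (chromosome 13, 36867178 to 37050244) was counted 755 times in 79 members, at 3839 CPM against 4.43. The other 3 markers were seen in fewer members: Cd163 in 38, Ms4a7 in 36 and Lyve1 in 7, the last with 10 UMIs in all.

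Mrc1 and F13a1 varied widely among the aged AAV-EGFP libraries. The level of Mrc1 was 6666, 5053 and 6872 CPM in young AAV-EGFP replicates 1 to 3, 1732, 6237 and 5998 in aged AAV-EGFP, and 3262, 1862 and 2316 in aged AAV-B3GNT3. The low aged AAV-EGFP value is that of replicate 1, and without the members of many UMIs it was 2949, while replicate 2 then had 7759. With all members the aged AAV-EGFP and aged AAV-B3GNT3 libraries overlapped, and aged AAV-B3GNT3 lay below every young library. F13a1 stood at 4833, 5564 and 6909 in young AAV-EGFP, 1769, 3584 and 6598 in aged AAV-EGFP, and 2753, 2840 and 2815 in aged AAV-B3GNT3. Again aged AAV-EGFP overlapped both other groups. Cd163 ranged from 500 to 672 in young AAV-EGFP, from 469 to 1285 in aged AAV-EGFP and from 189 to 918 in aged AAV-B3GNT3, with overlap throughout. These genes chose the members, so they stayed in the fits but their tests are not read as results.

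**Figure D1:**
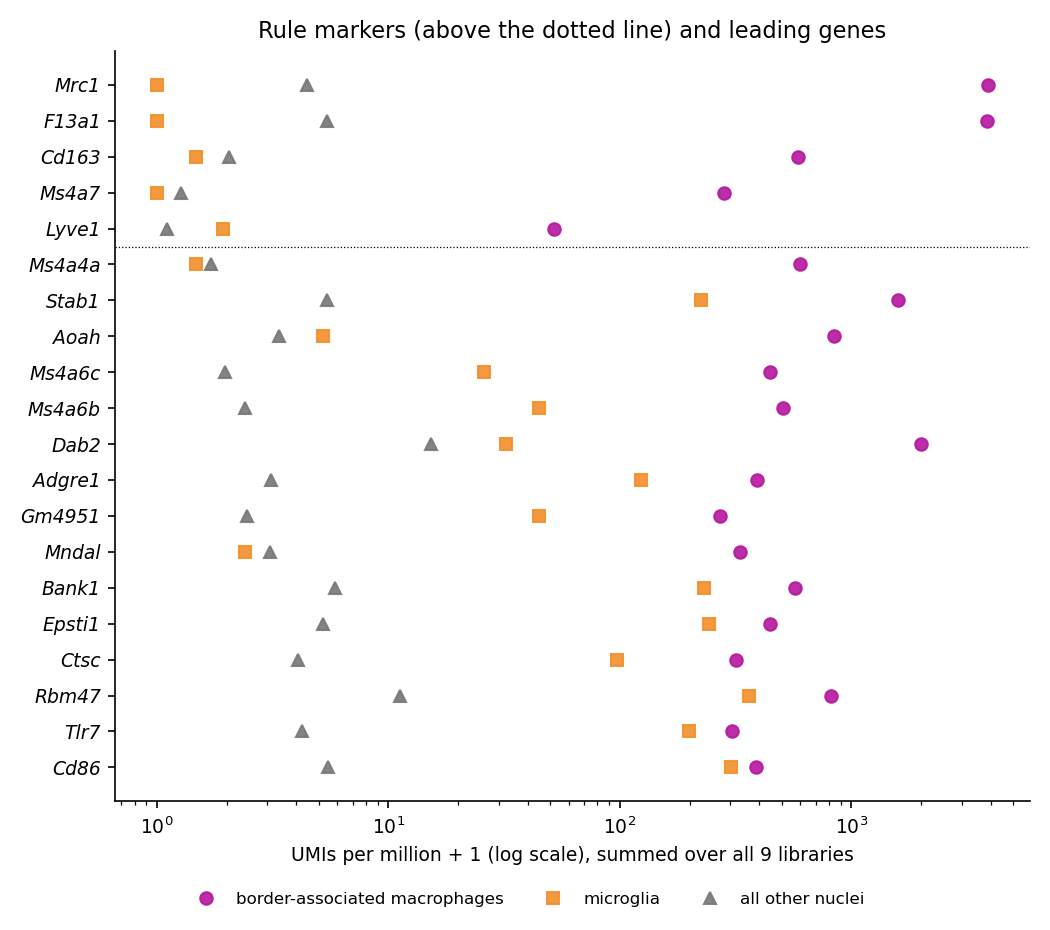
Levels of the 5 rule markers (above the dotted line) and the 15 leading genes in the 86 border-associated macrophages (circles), in 1093 microglia (squares) and in all other nuclei (triangles), as CPM plus 1 on a log axis, summed over 9 libraries. Ms4a4a, Aoah and Mndal lay within 5 CPM in both microglia and other nuclei, while Cd86 and Tlr7 were of a similar order in members and microglia.

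The 15 genes outside the rule that stood highest over other nuclei were mostly known macrophage genes, and fell into those shared with microglia and those not. Microglia levels are given for the 1093 microglia with at most 2 times the median UMIs of their kind and library. Member levels keep all 86 nuclei, those of many UMIs included, so the limit applies to microglia only. Ms4a4a (chromosome 19, 11375523 to 11392790) reached 600 CPM in members, with 0.467 in microglia and 0.706 in all other nuclei. Aoah, which removes acyl chains from bacterial lipopolysaccharide, stood at 844 against 4.20 in microglia. Mndal, an interferon-inducible DNA-binding protein, stood at 331 against 1.40. Dab2, an adaptor for clathrin-coated uptake, stood at 1993 CPM against 31.3 in microglia, and Ms4a6c and Ms4a6b at 442 and 503 against 24.8 and 43.9. These 6 genes had few UMIs in microglia.

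Other leading genes were plainly present in microglia too. Stab1, a scavenger receptor, was at 1592 CPM in members and 223 in microglia. Adgre1 (F4/80), a classic surface marker of mouse macrophages, was at 392 and 123, and Ctsc (cathepsin C) at 315 and 96.2. Closer still were Bank1 (570 and 231), a signalling scaffold, Epsti1 (442 and 241), Rbm47 (814 and 361), an RNA-binding protein, Tlr7 (305 and 197), the endosomal sensor of single-stranded RNA, and Cd86 (386 and 302), a co-stimulatory ligand for T cells. In all 1309 microglia, without the limit on UMIs, Bank1, Epsti1, Rbm47, Tlr7 and Cd86 stood at 123, 125, 190, 103 and 157, farther below the members. The last of the 15, Gm4951, is a gene model with 53 UMIs in 28 members. All 15 had a UMI in every library except Ms4a6b, which had none in young AAV-EGFP replicate 1.

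Marker lists of monocytes, T cells and fibroblasts were mostly low or at 0 in the members. Those of dendritic cells, pericytes, oligodendrocytes, astrocytes and neurons were not. The microglia list lay below its level in microglia but above that in all other nuclei. Of the 9 microglia genes outside the rule, 7 had a UMI, and Sall1 and Slc2a5 were at 0. Their sum was 275 CPM against 1749 in microglia and 63.4 in all other nuclei. The microglia sum includes genes that also chose the microglia, among them Siglech, Gpr34 and Tmem119. Cx3cr1, the fractalkine receptor, stood at 81.4 against 521. Of 9 monocyte and neutrophil genes 8 were at 0, among them Ly6c2, Plac8, Chil3, S100a8, S100a9, Ly6g and Retnlg, and Ccr2 gave 9 UMIs in 3 members. Of 9 T and NK cell genes 8 were at 0, as were 4 of 5 B cell genes and 6 of 8 fibroblast genes. The fifth B cell gene, Ighm, stood at 81.4 CPM against 71.9 in microglia of limited UMIs and 4.69 in all other nuclei. The dendritic cell list went the other way: 5 of its 7 genes had a UMI, 41 in all, at 208 CPM against 48.1 in microglia and 52.3 in all other nuclei. Zbtb46, a transcription factor of classical dendritic cells, gave 21 of these UMIs in 18 members and the lectin Cd209a 12 in 9, while Xcr1 and Itgax were at 0 (all 4 named after their values were seen). The 6 astrocyte genes summed to 2100.1 CPM against 2601 in all other nuclei, and the 12 neuron genes to 11339 against 37331. The 5 oligodendrocyte genes summed to 819 CPM (161 UMIs) against 648 in microglia and 1507 in all other nuclei, with 255 to 2083 in the aged AAV-B3GNT3 libraries. The pericyte and smooth muscle genes summed to 112 CPM (22 UMIs) against 41.5 in microglia and 45.9 in all other nuclei, and 15 of these UMIs were of Atp13a5 in aged AAV-B3GNT3 replicate 3, where the sum was 557. All 7 further border-macrophage markers (Pf4, Cbr2, Stab1, Dab2, Colec12, Siglec1 and Folr2) had a UMI, and together they stood at 4454 CPM against 165 in microglia. Of the 876 UMIs behind this sum 848 were of Dab2, Stab1 and Colec12, and Pf4, Cbr2, Siglec1 and Folr2 gave 7, 13, 7 and 1. In these sums all 1309 microglia are used.

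**Figure D2:**
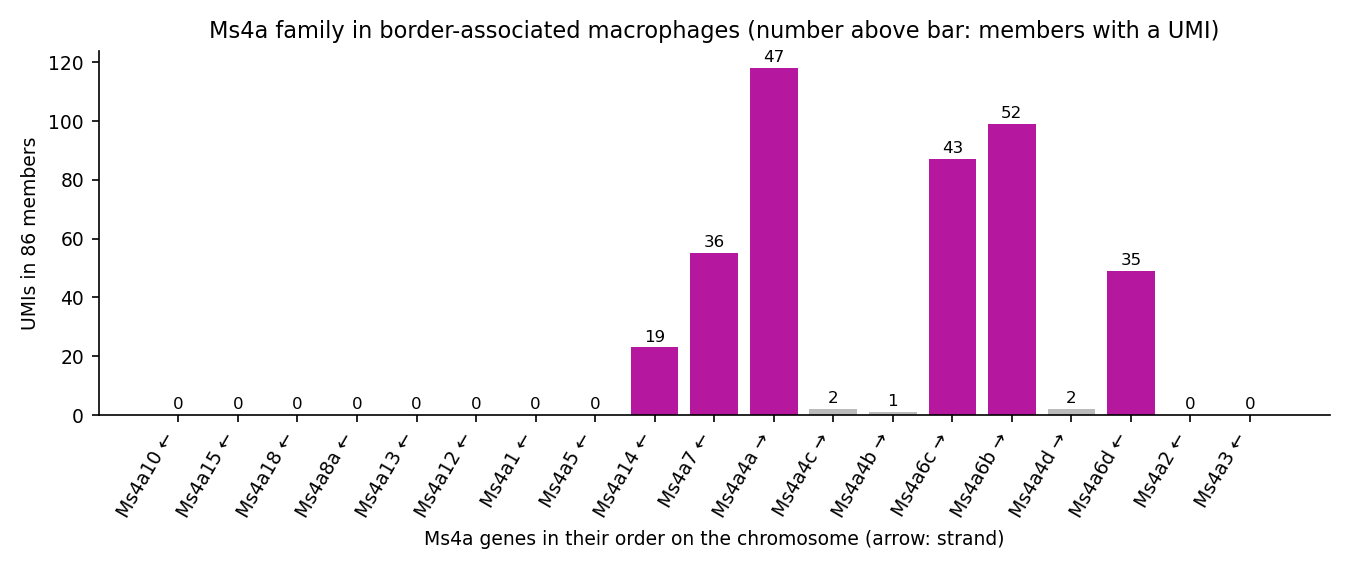
UMIs of the 19 Ms4a genes in the 86 members, in their order along the chromosome, with the number of members that held a UMI above each bar and an arrow for the strand. The 6 genes with at least 10 UMIs (coloured) lie in 1 stretch between 8 genes at 0 on the left and 2 at 0 on the right, with 3 genes of 1 or 2 UMIs among them.

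The Ms4a genes counted in these cells lay in a single chromosomal stretch. Of 19 Ms4a genes on chromosome 19 (10962293 to 11640851), 10 were at 0 in the members and 6 had at least 10 UMIs: Ms4a14 (23), Ms4a7 (55), Ms4a4a (118), Ms4a6c (87), Ms4a6b (99) and Ms4a6d (49). These 6 lay within 303.6 kb, from 11301249 to 11604849. The 3 genes between them, Ms4a4c, Ms4a4b and Ms4a4d, gave 2, 1 and 2 UMIs. Among the genes at 0 were Ms4a1 (CD20, of B cells) and Ms4a2 (of the mast cell IgE receptor), for each of which a count of 0 allows up to 15.3 CPM, for counting error only. In the members 77 of 86 held at least 1 of the 6 genes and 65 held 2 or more. Ms4a7, a rule marker held by 36 members, is 1 of the 6, so the rule partly set these counts.

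Members with these genes were found in each library, though young AAV-EGFP replicate 1, with 3 members, held UMIs of only 2 of the 6 (Ms4a4a and Ms4a6c). The members with 1 or more of the 6 genes were 2 of 3, 7 of 9 and 11 of 11 in the young mice, 6 of 7, 12 of 12 and 6 of 7 in the aged controls, and 8 of 10, 12 of 14 and 13 of 13 with AAV-B3GNT3. Among all 1309 microglia few held them: 0.0764% for Ms4a4a, 0.0764% for Ms4a14, 3.59% for Ms4a6c, 6.95% for Ms4a6b and 5.27% for Ms4a6d. The microglia rule did not use Ms4a7, and it too had 0 UMIs in microglia. Ms4a7 was 1 of the markers of the members, so its own count is no finding, and the member counts of the 6 genes include it. Ms4a genes are paralogs, and reads could have been shared between near copies such as Ms4a6b, Ms4a6c and Ms4a6d, so their separate levels are uncertain.

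Genes of both states known at the borders were seen, in few members and never in the same one. Of the MHC class II genes, H2-Aa, H2-Eb1 and the invariant chain Cd74 each gave 14 UMIs and H2-Ab1 gave 4, in 15 members in all, 7 of which held at least 2 of these genes. Members with an MHC class II UMI numbered 0, 0 and 2 in young AAV-EGFP, 2, 1 and 1 in aged AAV-EGFP, and 3, 5 and 1 in aged AAV-B3GNT3. Every aged library thus had at least 1 such member, and 2 of the 3 young libraries had none. In microglia H2-Ab1 and H2-Eb1 were at 0 and Cd74 was found in 0.611%. Lyve1, a rule marker, was found in 0, 1 and 4 members in young AAV-EGFP, in 0, 1 and 0 in aged AAV-EGFP, and in 0, 1 and 0 in aged AAV-B3GNT3. No member held both, but with 10 UMIs of Lyve1 and 46 of MHC class II an absence in 1 nucleus says little. The monocyte marker Ccr2 moved with MHC class II: all 3 members with a Ccr2 UMI were among the 15, and they held 21 of the 46 UMIs. Without them 12 members with 25 UMIs were left, and aged AAV-EGFP replicate 3 had none. The part of other cell types in these counts was not tested.

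Some genes of uptake stood well above microglia in the members, chiefly Dab2, Stab1 and Colec12. Of 18 scavenger and endocytic receptors in the list 17 were in the files and 16 had a UMI, and together they stood at 5360 CPM in members, 1033 in microglia and 228 in all other nuclei. The summed level was 4166, 7551 and 8179 CPM in young AAV-EGFP, 4115, 6237 and 4970 in aged AAV-EGFP, and 4843, 3977 and 4398 in aged AAV-B3GNT3. Young replicates 2 and 3 were the 2 highest libraries, and the young replicate with 3 members lay among the aged ones. Dab2, Stab1 and Colec12 gave 848 of the 1054 UMIs, and the other genes of the list together stood at 1047 CPM against 766 in microglia. Of the 16 genes 5 lay below microglia (Lrp1, Scarb2, Fcgr3, Scarb1 and Fcgr1), for example Lrp1 at 122 against 330. The list for clearance of dying cells was lower too, at 3331 against 6500. Msr1, the scavenger receptor A, had 27 UMIs in 16 members at 137 CPM against 2.34 in microglia. Marco was at 0. Colec12, a collectin scavenger receptor, is described with ageing below. Of genes in this and the next paragraphs, those not among the 4 best counted tested genes of their list were chosen after their values were seen.

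Iron and haem genes, complement and lysosomal genes were present at levels nearer to those of microglia. The 12 iron and haem genes summed to 981 CPM against 632 in microglia, and Hmox1, the haem oxygenase induced by haem, was at 0 beside its downstream partner Blvrb (27 UMIs in 22 members). Of 12 complement genes, C1qa, C1qb and C1qc, the chains of C1q, gave 18, 32 and 36 UMIs. The 20 lysosome and lipid genes summed to 2649 CPM against 3505 in microglia. Within that list Trem2, a lipid receptor of microglia, gave 2 UMIs at 10.2 CPM against 76.1 in microglia, while Apoe, the main lipid carrier of brain, stood at 524 against 134.

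Transcription factors separated the members from microglia in both directions. As above, these levels set all 86 members against the 1093 microglia of limited UMIs. Rbpj, the effector of Notch signalling, was counted 678 times in 76 members, at 3448 CPM against 160 in microglia. Maf was at 1719 against 537. Ikzf1 was at 295 against 1083, and Runx1, Etv6 and Mef2c were close in both (915 against 875, 788 against 785, and 1332 against 1341). Of secreted factors, Igf1, a growth factor, had 40 UMIs in 28 members at 203 CPM against 6.54 in microglia, and Il1b, Tnf and Il10 were at 0. For adhesion, Itga4, the integrin alpha 4 chain, stood at 254 against 7.01, and Itga6 at 76.3 against 355. Csf1r stood at 392 against 614, and Tgfbr1 at 422 against 2001.

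**Figure D3:**
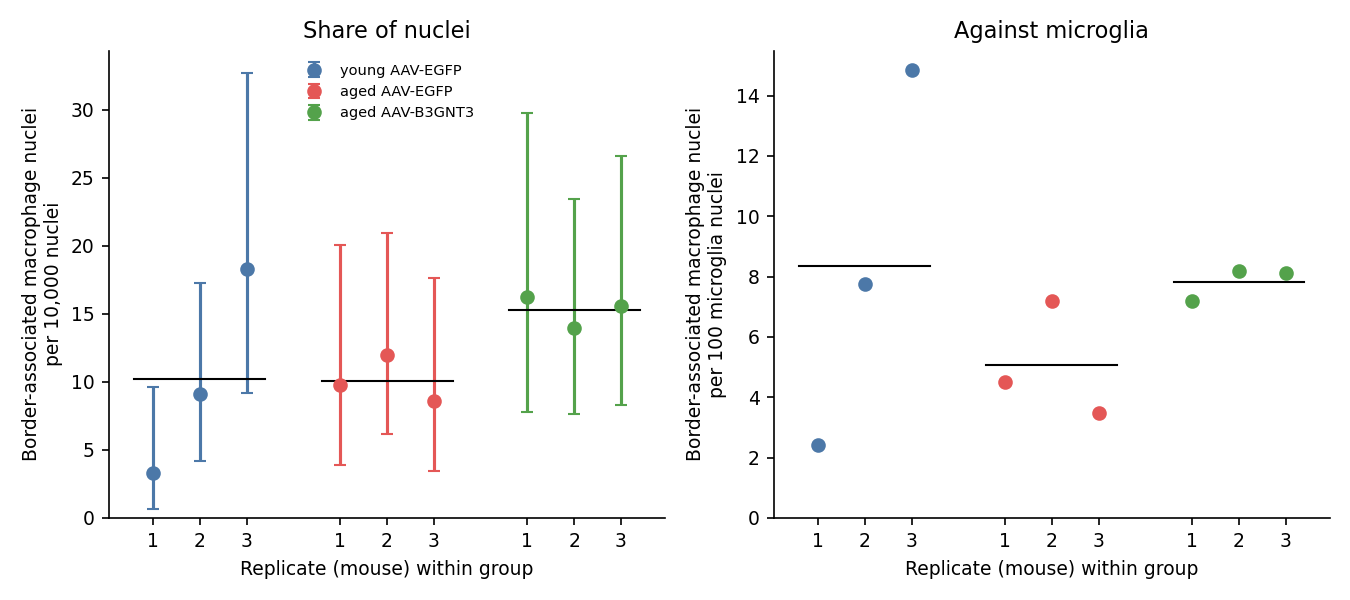
Border-associated macrophage nuclei per 10000 nuclei (left, with 95% exact binomial intervals for counting error) and per 100 microglia nuclei (right) in each of 9 libraries, with horizontal lines at group means. The 3 aged AAV-B3GNT3 libraries sit between 14.0 and 16.2 per 10000, above the 3 aged AAV-EGFP libraries at 8.56 to 11.98, and the young libraries span 3.29 to 18.3.

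A difference among the groups in the share of these nuclei did not exceed the spread between mice. The share was 3.29, 9.12 and 18.3 per 10000 nuclei in young AAV-EGFP replicates 1 to 3, 9.75, 11.98 and 8.56 in aged AAV-EGFP, and 16.2, 14.0 and 15.6 in aged AAV-B3GNT3. The means were 10.2 ± 7.58, 10.1 ± 1.74 and 15.3 ± 1.15 (SD, n = 3 each), and over all libraries the share was 11.5 per 10000 (exact binomial 95% interval 9.19 to 14.2, for counting error only). An F statistic compared over all 280 partitions of the libraries gave an exact permutation p = 0.343 (adjusted over 2 shares 0.564). Young AAV-EGFP held both the lowest and the highest library. Without young replicate 3, the highest, the exact permutation p was 0.00714 (adjusted 0.0143), so the outcome depends on that library. This p was the lowest of 9 from leaving out each library in turn, and is not corrected for that choice.

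Between the aged groups the shares did not overlap. Aged AAV-B3GNT3 lay 5.16 per 10000 above aged AAV-EGFP, in 3 of 3 libraries, with a two-sided exact permutation p = 0.1, which is the smallest that 3 against 3 allows. The difference was 4.396 to 6.11 when each library was left out in turn. It was 5.84 with nuclei thinned to 1000 UMIs, where the 2 groups overlapped (17.4, 12.6 and 15.1 against 23.0, 16.4 and 23.2; exact permutation p = 0.2). Without members of many UMIs it was 5.49, also with exact permutation p = 0.2. With at least 3 rule markers per member it was only 2.15 (exact permutation p = 0.4), and the groups overlapped, at 4.18 to 7.99 against 4.99 to 11.3. With age under AAV-EGFP the means differed by -0.14 (exact permutation p = 1).

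Set against microglia of the same library, the members numbered 2.40, 7.76 and 14.9 per 100 in young AAV-EGFP, 4.52, 7.19 and 3.47 in aged AAV-EGFP, and 7.19, 8.19 and 8.13 in aged AAV-B3GNT3. The exact permutation test among the 3 groups gave p = 0.564, and 0.0286 (adjusted 0.0571) without young replicate 1. Aged AAV-B3GNT3 lay 2.78 per 100 above aged AAV-EGFP (exact permutation p = 0.1), and 1.04 above it with at least 3 markers (exact permutation p = 0.3). Microglia, the denominator, were themselves at a mean of 126, 210 and 196 per 10000 in the young, the aged control and the aged B3GNT3 libraries (exact permutation p = 0.0607). Fibroblast nuclei, which share the borders with these macrophages, were at a mean of 121, 66.0 and 108 per 10000 in the same order (exact permutation p = 0.0929). Their part in the shares was not tested. Across the 9 libraries the members' share and the fibroblast share had a Pearson r of 0.31 (permutation p = 0.422) and a Spearman rank correlation of 0.45 (permutation p = 0.230), 1 of 3 such relations computed, with adjusted p of 0.890 and 0.690. Without the 2 libraries farthest from the median fibroblast share r was 0.35, and leaving out 1 library gave 0.048 (without young replicate 3) to 0.52. With group means removed r was 0.31 and the Spearman correlation -0.12, so no relation was shown.

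**Figure D4:**
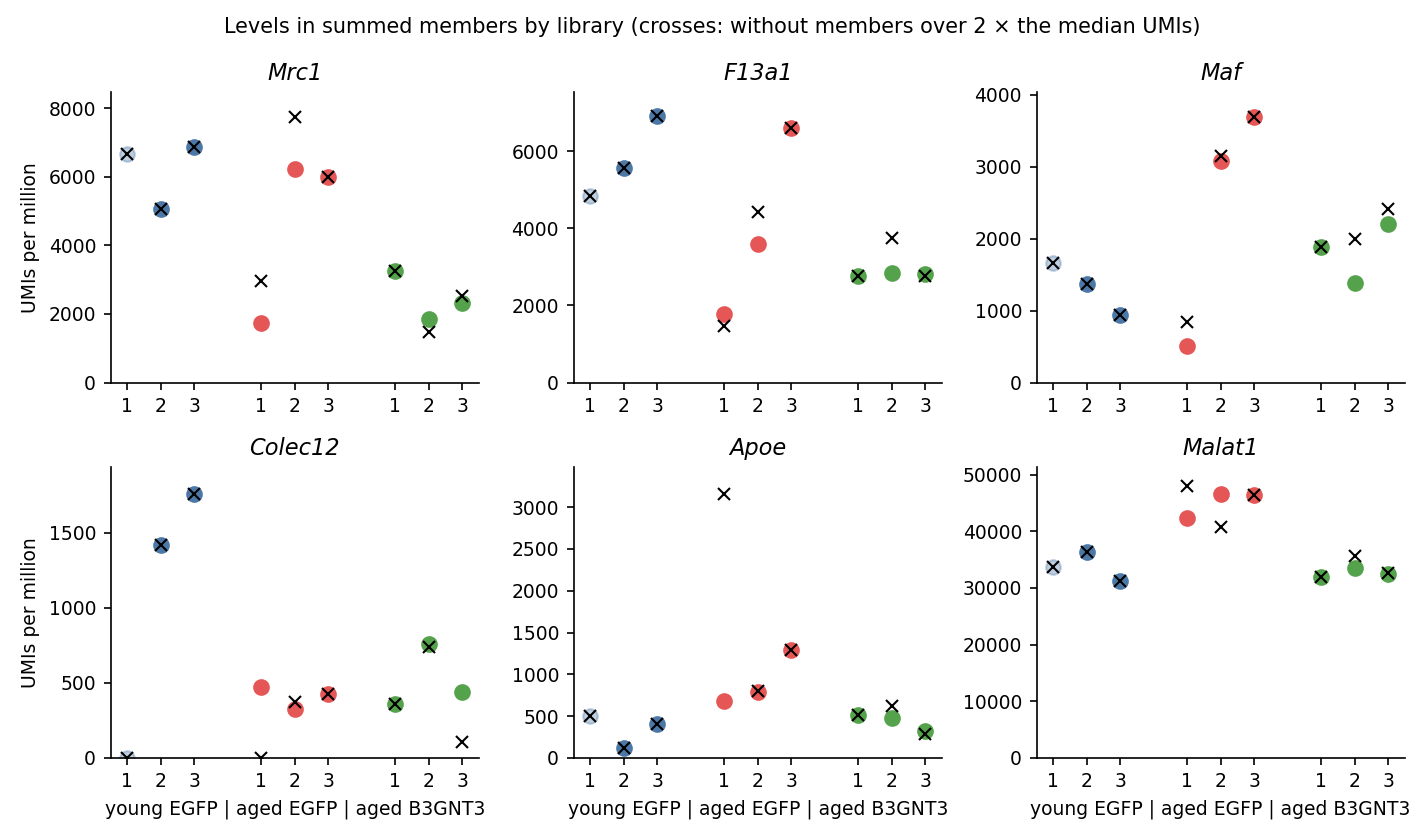
Levels of 6 genes in the summed members of each of 9 libraries, in CPM, for young AAV-EGFP (blue, the pale point is the library with 3 members), aged AAV-EGFP (red) and aged AAV-B3GNT3 (green). Crosses give the level without members over 2 times the median UMIs of their library, where aged AAV-EGFP replicate 1 keeps 4 members. Malat1 was highest in the 3 aged AAV-EGFP libraries, and Colec12 in young replicates 2 and 3.

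With age under AAV-EGFP, no gene passed the threshold in the members. Of 653 genes tested with edgeR's quasi-likelihood test on the summed UMIs of 8 libraries, 0 (0%) had an adjusted p under 0.05, and 26 (3.98%) had an unadjusted p under 0.05. DESeq2 on the same sums, without that filter on low counts, tested 12761 genes. It also called 0, with 39 of the 12761 at an unadjusted p under 0.05. The groups did not overlap for 111 of the 653 genes (17%). The young group lacked its library of fewest members here, and smaller groups separate more often by chance. The 10 genes with the smallest p are described here as not past the threshold.

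Colec12 (chromosome 18, 9707595 to 9882644) was low in every aged library. It stood at 0, 1419 and 1755 CPM in young AAV-EGFP, where the 0 is the library with 3 members, at 469, 326 and 428 in aged AAV-EGFP, and at 357, 757 and 440 in aged AAV-B3GNT3. Among the libraries tested, young and aged did not overlap, but few nuclei carried the gene: 1 nucleus held 16 of the 25 UMIs of young replicate 2. Without the nucleus of most Colec12 UMIs in each library the levels were 628 and 1260 in the tested young libraries, 86.2, 258 and 0 in aged AAV-EGFP, and 225, 637 and 106 in aged AAV-B3GNT3, so the young and the aged AAV-B3GNT3 libraries then overlapped. The log2 fold change with age was -1.75 (SE 0.52, edgeR unadjusted p = 0.00581, adjusted p = 0.921). Without the members of many UMIs it was -1.98 (SE 0.56, edgeR unadjusted p = 0.000387, adjusted p = 0.0154). That fit has 7 libraries and 358 genes, since aged AAV-EGFP replicate 1 drops out too. Its SE is close to that with all members, while its p is far smaller.

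Maf, a transcription factor of resident macrophages, went the other way in 2 of 3 aged AAV-EGFP libraries. Its level was 1666, 1363 and 934 CPM in young AAV-EGFP, 505, 3072 and 3685 in aged AAV-EGFP, and 1886, 1389 and 2199 in aged AAV-B3GNT3. Aged AAV-EGFP held the lowest and the 2 highest libraries, and the lowest was replicate 1. The log2 fold change with age was 1.18 (SE 0.65, edgeR adjusted p = 0.983), and 1.60 (adjusted p = 0.0117) in the fit without members of many UMIs, which lacks that replicate. Without aged AAV-EGFP replicate 3 it was 0.73. It was named after that fit was seen.

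Among the other genes of smallest p, Apoe and Malat1 were higher in every aged AAV-EGFP library than in the young. Apoe was at 500, 114 and 411 CPM in young AAV-EGFP, 686, 791 and 1285 in aged AAV-EGFP, and 510, 473 and 323 in aged AAV-B3GNT3. With age its log2 fold change was 1.85 (SE 0.59, edgeR unadjusted p = 0.00829, adjusted p = 0.921), and 1.86 (adjusted p = 0.0552) without members of many UMIs. It was 2.98 without young replicate 3 and 1.25 without young replicate 2. Without members of many UMIs aged AAV-EGFP replicate 1, which that fit lacks, stood at 3159 in place of 686, and 12 of its 19 Apoe UMIs lay in 1 nucleus. Without the nucleus of most Apoe UMIs in each library it stood at 263, below young replicate 3 at 285. Astrocytes express Apoe strongly, and the summed astrocyte-gene level of the members ranged from 568 to 1500 in young AAV-EGFP, from 253 to 4189 in aged AAV-EGFP and from 528 to 7543 in aged AAV-B3GNT3. The part of astrocyte RNA in the Apoe level was not tested. Malat1, a long noncoding RNA kept in the nucleus, was at 33661, 36337 and 31146 in young AAV-EGFP, 42337, 46682 and 46444 in aged AAV-EGFP, and 31962, 33516 and 32489 in aged AAV-B3GNT3. The aged AAV-EGFP libraries lay above all the others. Its log2 fold change was 0.60 with age (SE 0.18, edgeR adjusted p = 0.921), 0.38 without members of many UMIs (adjusted p = 0.410) and 0.38 without young replicate 3.

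Of the remaining 7, Nrros, a milieu protein that presents latent TGF-beta, stood lower in the aged libraries than in the young ones tested: 333, 908 and 822 CPM in young AAV-EGFP, 217, 233 and 343 in aged AAV-EGFP, and 306, 410 and 440 in aged AAV-B3GNT3. The tested young libraries lay above the aged ones, and the library with 3 members did not. The log2 fold change was -1.56 (SE 0.45, edgeR unadjusted p = 0.00479). Tgfbr1, the type I receptor for TGF-beta, had a log2 fold change of 2.02 (SE 0.67, edgeR unadjusted p = 0.0110), with 170 and 149 in the 2 young libraries tested, 833 in the young library of 3 members, and 325, 1070 and 343 in aged AAV-EGFP. With all members, that library of 3 members is thus higher than 2 of the 3 aged ones. Without members of many UMIs the aged AAV-EGFP libraries stood at 1474, 1170 and 343, and it was then above only the last. Galntl6, of the family that starts O-glycans, had a log2 fold change of -2.86 and stood at 295 CPM in the members against 1643 in all other nuclei. The share of neuron-gene UMIs was also lower in aged AAV-EGFP replicates 2 and 3 than in the young libraries, though highest in replicate 1, and the part of other nuclei's RNA in this gene was not tested. Egfr, the receptor for epidermal growth factor, had -1.88. Kif1b (a kinesin motor), Abr (a regulator of small GTPases) and Babam2 (of a DNA repair complex) had 2.34, 1.63 and 1.67. No adjusted p of these 7 was under 0.921. For Egfr, young replicate 3 held 44 of the 97 UMIs, and without that library the log2 fold change was -0.86. Babam2 then had 0.98, and Tgfbr1 had 1.26 without aged AAV-EGFP replicate 2. Another setting allowed a member up to 1 UMI of each exclusion gene. The log2 fold changes were then -0.42 for Nrros, 0.71 for Kif1b, 0.20 for Abr, -0.43 for Egfr and -1.03 for Colec12. Each was lower in size by over 1.5 times.

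**Figure D5:**
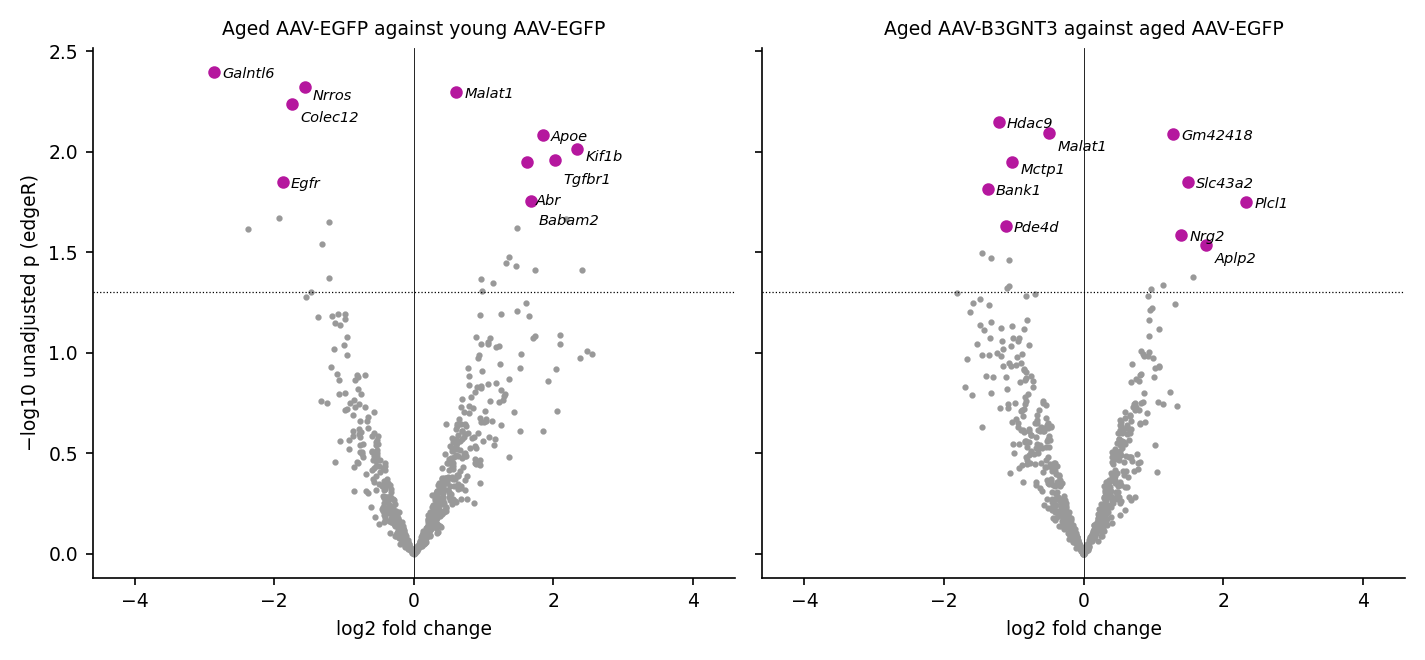
Log2 fold change against −log10 of the unadjusted edgeR p for the genes tested outside the rule, with age under AAV-EGFP (left) and with AAV-B3GNT3 in aged mice (right). The dotted line marks an unadjusted p of 0.05, and the 10 genes of smallest p are named. No gene had an adjusted p under 0.05 in either comparison.

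With AAV-B3GNT3 in aged mice, again no gene passed. Of the 653 genes 0 (0%) had an adjusted edgeR p under 0.05 and 18 (2.76%) an unadjusted p under 0.05. DESeq2 called 0 of 12761 genes, with 30 at an unadjusted p under 0.05. Of the 653 genes, 61 (9.34%) had groups that did not overlap. The smallest adjusted p was 0.940. The aged control libraries enter both this comparison and that with age, so a gene high or low in these tends to move in opposite ways in them.

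Hdac9, a histone deacetylase of class IIa, was lower in every aged AAV-B3GNT3 library. It was at 1833, 2101 and 1307 CPM in young AAV-EGFP, 2815, 3630 and 2314 in aged AAV-EGFP, and 1529, 1010 and 1349 in aged AAV-B3GNT3. The aged groups did not overlap. The log2 fold change was -1.22 (SE 0.38, edgeR unadjusted p = 0.00713) with all members and -1.23 without those of many UMIs, although replicate 1 of aged AAV-EGFP then stands at 1264. Mctp1, a membrane protein that binds calcium, was at 3833, 4372 and 3921 in young AAV-EGFP, 3104, 3956 and 6255 in aged AAV-EGFP, and 1937, 2083 and 2522 in aged AAV-B3GNT3. Every aged AAV-B3GNT3 library lay below all the other 6. Its log2 fold change with treatment was -1.02 (SE 0.34, edgeR unadjusted p = 0.0112), and it was called in the fit without members of many UMIs (-1.32), while without aged AAV-EGFP replicate 3 it was -0.66.

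Slc43a2, a transporter of neutral amino acids, stood higher in the aged AAV-B3GNT3 libraries, at 0, 170 and 299 CPM in young AAV-EGFP, 144, 279 and 257 in aged AAV-EGFP, and 1070, 568 and 352 in aged AAV-B3GNT3. The aged AAV-B3GNT3 libraries lay above all the others with all members, but without those of many UMIs replicate 3 stood at 213, below the aged AAV-EGFP values of 421, 369 and 257. The log2 fold change was 1.49 (SE 0.52, edgeR unadjusted p = 0.0142). Malat1 had -0.49 (SE 0.16, edgeR unadjusted p = 0.00803), and -0.30 without members of many UMIs (edgeR adjusted p = 0.478). Bank1, a leading gene of the members, was at 686, 1024 and 600 in aged AAV-EGFP and 357, 126 and 440 in aged AAV-B3GNT3, with a log2 fold change of -1.37. It lay below both other groups in each aged AAV-B3GNT3 library. Of the others, Pde4d, which breaks down cyclic AMP, had -1.12, and Gm42418 (a gene model that overlaps ribosomal RNA sequence), Plcl1, Nrg2 and Aplp2 had 1.28, 2.33, 1.39 and 1.75. For Plcl1, 1894 CPM in aged AAV-B3GNT3 replicate 2 stood against 204 and 733 in the other two, and without members of many UMIs these were 910, 204 and 284, too few counts for a test. Its log2 fold change was 4.05 without aged AAV-EGFP replicate 1. With up to 1 UMI of each exclusion gene allowed, Mctp1 had -0.60, Bank1 -0.69, Pde4d -0.69, Plcl1 1.04 and Nrg2 0.88. Each of these log2 fold changes was lower in size by over 1.5 times.

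Aged AAV-B3GNT3 against young AAV-EGFP gave the same count. Of 653 genes 0 (0%) had an adjusted edgeR p under 0.05 and 32 (4.9%) an unadjusted p under 0.05. DESeq2 called 0 of 12761 genes, with 37 at an unadjusted p under 0.05. Of the 653 genes, 156 (23.9%) had groups that did not overlap. This comparison shares the young libraries with the first and the B3GNT3 libraries with the second. Its young group again lacked the library of fewest members, and smaller groups separate more often by chance. The 23.9% here and the 9.34% with AAV-B3GNT3 in aged mice therefore cannot be compared directly. For Colec12 the 3 libraries of aged AAV-B3GNT3 lay below both tested young libraries.

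By gene list, 0 genes were called in any of the 3 comparisons, as for all genes tested. A wider list of 23 border-macrophage genes outside the rule had 1 gene at 0 (Ccl24) and 7 that could be tested (Stab1, Dab2, Colec12, Maf, Ms4a6c, Wwp1 and Rbpj). Of these 7, the median log2 fold change was -0.19 with age, -0.26 with AAV-B3GNT3 and -0.61 for aged AAV-B3GNT3 against young AAV-EGFP, beside 0.12, -0.05 and 0.03 over all genes tested. The 10 transcription factors tested had medians of -0.03, -0.25 and 0.02 in the same order. The 3 scavenger and endocytic receptors tested (Stab1, Dab2 and Colec12, all 3 also in the first list) had -0.56, -0.26 and -1.10. Dab2 stood at 2333, 3463 and 3062 CPM in young AAV-EGFP, 1696, 2187 and 1971 in aged AAV-EGFP, and 1478, 821 and 1847 in aged AAV-B3GNT3. Every young library lay above all aged ones for this adaptor, with log2 fold changes of -0.56 with age (SE 0.41) and -1.10 for aged AAV-B3GNT3 against young AAV-EGFP (SE 0.41, edgeR unadjusted p = 0.0201, adjusted p = 0.894). Stab1 was at 1333, 1817 and 2203 in young AAV-EGFP, 938, 2327 and 1885 in aged AAV-EGFP, and 1835, 1452 and 997 in aged AAV-B3GNT3, with overlap of all groups.

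The remaining lists had few tested members. The 6 actin and phagocytic signalling genes had medians of -0.15, 0.45 and 0.28, the 4 cytokine and growth factor receptors 0.17, 0.11 and 0.79, the 4 matrix and migration genes 0.23, -0.12 and 0.28, the 3 lysosome and lipid genes 1.26, -0.83 and 0.42, the 3 genes for clearance of dying cells 0.32, 0.06 and 0.60, and the 2 complement genes 1.15, -0.93 and 0.22. Only Cd86 of the MHC class II and antigen presentation list was tested. No gene of the iron and haem, secreted factor, interferon or immediate early lists had counts enough for a test. In the lysosome list the 3 genes were Apoe, Abca1 and Ctsb, and Abca1, which exports cholesterol, was at 667, 625 and 224 CPM in young AAV-EGFP, 505, 1303 and 857 in aged AAV-EGFP, and 306, 631 and 498 in aged AAV-B3GNT3. Its groups overlapped. In the matrix list Arhgap15, a regulator of Rac, was counted 336 times in 79 members, at 1709 CPM against 120 in microglia, and ranged from 667 to 1681 in young AAV-EGFP, from 1372 to 3856 in aged AAV-EGFP and from 969 to 2141 in aged AAV-B3GNT3. Mertk and Elmo1, a receptor for dying cells and an engulfment adaptor, were at 864 and 1332 against 1911 and 3622 in microglia. Inpp5d and Lyn, a lipid phosphatase and a kinase of immune receptor signalling, were at 1180 and 997 against 2414 and 1497.

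More genes were called once the members of many UMIs and, with them, aged AAV-EGFP replicate 1 were left out. Without the 8 members over 2 times the median, 358 genes could be tested in 7 libraries, since aged AAV-EGFP replicate 1 then kept 4 members and was left out. For Colec12 and Apoe this fit gave log2 fold changes and SEs close to those with all members, but smaller unadjusted p. How far its estimate of the spread made the calls was not tested. With age 11 genes were then called (3.07%; 0.559% higher and 2.51% lower), of which Maf and Picalm, an adaptor of clathrin-coated pits, rose and Colec12, Lrp1b, Lrrtm4, Lsamp, Nkain2, Nrg3, Opcml, Rbfox1 and Tenm2 fell. The 8 fallen genes other than Colec12 are strongly expressed in neurons, and 4 of them (Lrrtm4, Nkain2, Opcml and Rbfox1) had the opposite sign with all members. The share of UMIs from 11 neuron genes in the members, with all members, was 1.08, 1.005 and 0.810% in young AAV-EGFP, 2.44, 0.363 and 0.394% in aged AAV-EGFP, and 0.571, 0.682 and 0.487% in aged AAV-B3GNT3. The 2 aged AAV-EGFP libraries left in that fit are the 2 lowest of the 9, and the part of neuron RNA in these calls was not tested.

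With AAV-B3GNT3 the same fit called 5 genes (1.4%; 0.559% higher and 0.838% lower): Nkain2 and Nrg3 rose, and Mctp1, Mrc1 and Picalm fell, and Nrg3 had the opposite sign with all members. Mrc1 chose the members, so its call supports nothing. Picalm stood, with all members, at 167, 625 and 822 CPM in young AAV-EGFP, 397, 1676 and 1885 in aged AAV-EGFP, and 459, 600 and 880 in aged AAV-B3GNT3. As for Maf, replicates 2 and 3 of aged AAV-EGFP were the highest and replicate 1 among the lowest. Without members of many UMIs, however, replicate 1 stood at 1264 for Picalm, above every young and aged AAV-B3GNT3 library, and at 842 for Maf, still the lowest. Aged AAV-B3GNT3 against young AAV-EGFP gave 3 genes (0.838%; 0.279% higher and 0.559% lower), Smyd3 up, and Colec12 and Mrc1 down. Leaving out aged AAV-EGFP replicate 1 alone gave 7 genes (1.4% of 500) with age (Maf up, and Lrp1b, Lrrtm4, Nkain2, Nrg3, Opcml and Tenm2 down), 4 (0.8%) with AAV-B3GNT3 (Plcl1, Pde4b and Nkain2 up, Mrc1 down) and 0 in the last comparison. Without only the 1 nucleus of 12595 UMIs, where all 8 libraries stayed in and 499 genes were tested, edgeR called 0 genes in each comparison, with 50 (10%), 31 (6.21%) and 41 (8.22%) at an unadjusted p under 0.05.

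Changes in the members were also set against those in microglia of the same libraries. An interaction of cell type and group, fitted with edgeR over 7111 genes with the library as a block, called 0 genes with age and 0 with AAV-B3GNT3, with 268 (3.77%) and 226 (3.18%) at an unadjusted p under 0.05. A gene could enter this fit on its microglia counts alone. Only 653 had counts enough for a test in the members, so the 0 does not show that the cell types changed alike. DESeq2 called 0 and 0 of 19938 genes, with 216 and 158 at an unadjusted p under 0.05. Without aged AAV-EGFP replicate 1 the edgeR fit called 0 with age and 2 (0.0289%) with AAV-B3GNT3, the neuron-expressed genes Nkain2 and Nrg3. With at least 3 rule markers per member, Nkain2 was the 1 gene called with AAV-B3GNT3, both in the members alone (0.348%) and in the difference from microglia (0.0132%). That setting left aged AAV-EGFP replicate 1 with 3 members, so these fits lack that library too. How large a difference this interaction could detect was not measured.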

How the data were processed

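Nuclei of 9 mice were profiled with 10x 3′ v3.1 chemistry. The authors deposited, per library, a matrix of UMI counts per gene and nucleus. The labels name Cell Ranger 4.0.0 and mm10, whereas the matrix headers name 7.2.0, and whether intronic reads were counted was not determined. The study's methods include removal of free RNA and of doublets, but the deposited counts are whole numbers with no such correction or cell labels, so no doublet caller was run; the exclusion genes, and an alternative without members over 2 times the median UMIs of their library, stand in for it.

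Members were chosen by counts, and the members, gene lists and rules were chosen with earlier results of these data known. Counts of the members were summed per library, libraries with under 5 members were left out, and the sums were tested with edgeR 4.0.16 in R 4.3.3 (quasi-likelihood test, TMM, filterByExpr, all 3 groups in 1 fit, Benjamini-Hochberg adjustment). DESeq2 (version 1.42.0), which the study used, was an alternative. The residual degrees of freedom were 5 and the biological coefficient of variation was 0.432. The 653 genes tested hold 42.4% of the member UMIs. The test was tried on simulated data. Shares were compared with exact permutation tests over libraries (SciPy 1.17.1, NumPy 2.4.6, pandas 2.3.3, Python 3.11.15), relations with 100000 resamples. Of 31053 genes, 31011 had a position in GENCODE vM21 (GRCm38). The text names the rule genes, the 15 genes of largest ratio to all other nuclei among those with at least 50 UMIs, the 10 genes of smallest p with age and with AAV-B3GNT3 where fewer than 10 pass, and the 4 tested genes of highest level in each list; some genes are not reported here. Each mouse gave 1 library, so p-values rest on the spread between libraries of different mice. That spread also holds differences between the few nuclei of a library. For the gene tests, edgeR draws its estimate of the spread partly from all genes tested. To check for repeated libraries, members of replicate libraries were compared by chi-square divided by its degrees of freedom (1.49 to 4.75), which also holds differences between single nuclei. Intervals cover counting error only. Alternatives were other definitions of the members, normalisations, filters, subtraction of free RNA, a replicate block and leaving out each library.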

Additional observations from a re-analysis of the deposited data

How the results depend on the processing

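The members gave 6001 to 34104 UMIs per library, and the effect of depth on the calls was not tested. The count of genes called was 0 in every comparison with all members, and without members of many UMIs it was 11 with age, 5 with AAV-B3GNT3 and 3 for aged AAV-B3GNT3 against young AAV-EGFP. That setting also loses aged AAV-EGFP replicate 1 and tests 358 genes in place of 653. Its 5 and its 3 calls include Mrc1, a rule gene. Leaving out each library in turn gave 0 to 7 genes with age, 0 to 4 with AAV-B3GNT3 and 0 to 0 in the last, and both highest counts came without aged AAV-EGFP replicate 1. Mrc1 is also among the 4. With at least 3 markers, fits that again lack aged AAV-EGFP replicate 1 (3 members left) called 1 gene (Nkain2) with AAV-B3GNT3. They called 1 for the difference from microglia, where leaving out libraries gave 0 to 2. For all these calls the cause was not tested. For the share among groups, p lay between 0.00714 and 0.554 when each library was left out, the lowest without young replicate 3, and for the ratio to microglia between 0.0286 and 0.768. The difference in share with age lay between -3.62 and 3.89 and turned positive without young replicate 3 (3.89), aged AAV-EGFP replicate 1 (0.0302) or aged AAV-EGFP replicate 3 (0.623). The difference with AAV-B3GNT3 stayed above 0 but fell from 5.16 to 2.15 with at least 3 markers (exact permutation p = 0.4), and in the ratio to microglia from 2.78 to 1.04 (exact permutation p = 0.3). The fits with the replicate number as a block called 0 genes in each comparison, with 24, 14 and 27 at an unadjusted edgeR p under 0.05. Same-numbered libraries had r of -0.236 to 0.287 over 7 pairs, and differently numbered ones -0.389 to 0.312. With only 2 young libraries tested, their deviations from the group mean mirror each other, so this check cannot tell whether the numbers paired the mice. For Maf and the 10 genes of smallest p with age and with AAV-B3GNT3, 426 of 431 values under alternatives kept direction and side of the threshold and 5 passed it; genes called only under an alternative are not among them. The genes of smallest p were chosen in these same sums, and the alternatives share many of the nuclei. For these genes, keeping the side of the threshold means staying uncalled, so the count shows little about how firm the changes are. Of 100 levels, 98 stayed within the spread. Cd163 moved to 974 CPM with 3 markers, and Stab1 to 1059 with up to 1 UMI of each exclusion gene allowed. The fits with all 9 libraries, without the 1 nucleus of most UMIs, and with both cell types limited in UMIs were chosen after seeing the data.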
